A study of Mus musculus with 2 samples.

Results

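The solute carrier families Slc1, Slc3, Slc6, Slc7, Slc36, Slc38 and Slc43 hold most of the proteins that move amino acids across the plasma membrane, together with relatives that carry taurine, creatine, proline or neurotransmitters. Members were taken by symbol, as all rows of these 7 families present in both count tables. No threshold on measured levels was set, but the members were chosen with earlier results of these data known. This gave 50 genes of 27729 with a row in both tables: 14 of Slc6, 13 of Slc7, 10 of Slc38, 5 of Slc1, 3 of Slc36, 3 of Slc43 and 2 of Slc3. A further 8 family members had a row in 1 table only, with 0 to 4 UMIs each, and were left out.

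Cells were dissociated pancreatic islets of untreated male C57BL/6J mice aged 8 weeks, labelled as control, and every sample belonged to that 1 group. Islets were freed with collagenase, picked by hand and dissociated with trypsin-EDTA. RevGel-seq, which ties each cell to a barcoded bead inside a gel, gave 2 libraries of 735 and 748 cells, which the methods of the study describe as technical replicates of the same preparation. The libraries therefore carry no difference between animals, and every p-value below measures only the spread between libraries. UMIs are transcripts counted once by their molecular identifier, here 15931154 in library 1 and 17440292 in library 2, with medians of 17340 and 18922 per cell.

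Each cell was placed by which of insulin (Ins1 plus Ins2), Gcg (glucagon), Sst (somatostatin) and Ppy (pancreatic polypeptide) reached 1% of its UMIs. Insulin-only cells numbered 182 in library 1 and 190 in library 2, Gcg-only cells 182 and 174, Sst-only cells 35 and 23, and Ppy-only cells 54 and 68. Cells with both Gcg and Ppy numbered 65 and 86, cells with both Sst and Ppy 77 and 71, and cells with no hormone at 1% numbered 91 and 92. The remaining 93 cells held other combinations and entered no comparison. The 5 hormone genes were then left out, and levels are given as UMIs per 1000000 of the other UMIs in a group and library (CPM). Insulin-only and Gcg-only cells matched their lists of cell type markers, with hormones not among them. No list of gamma cell markers was used, so Ppy-only cells were not checked in this way. The summed level of 7 beta cell markers was 54311 and 55877 CPM in insulin-only cells and 576 to 757 CPM in Gcg-only cells. The 6 alpha cell markers summed to 46010 and 47582 CPM in Gcg-only cells and 1533 and 1618 CPM in insulin-only cells. The 4 delta cell markers summed to 6915 and 6872 CPM in Sst-only cells, which also held 15248 and 15541 CPM of the beta cell list.

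Amino acids reach islet cells through several kinds of carrier. Uniporters of the Slc7 family bring in arginine and lysine. Heterodimers of a light Slc7 chain with the heavy chain Slc3a2 exchange large neutral amino acids. Sodium-coupled carriers of the Slc38 family concentrate glutamine and other small neutral amino acids. In alpha cells amino acids stimulate glucagon release, and in beta cells arginine depolarises the membrane and leucine and glutamine feed metabolism, so the carriers on each cell type set which amino acids it can take up.

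Promoter sequence is shown for 2 members that were highest in Gcg-only cells, Slc38a4 and Slc7a8, and for Slc7a11, the cystine and glutamate exchanger, which had almost no UMIs and is a known target of the amino acid starvation response. RefSeq windows on build GRCm38.p6 were given for 37 of the 50 members (56 windows). Slc7a2 and Slc7a5 were among the members with no entry. The stretches run 5′ to 3′ on the gene's own strand and end at the annotated gene start, and capitals mark motif matches. Each window's 250 bases before the start were searched on both strands for TGATGNAA, the core of the composite element bound by ATF4, for TAATTA, a homeodomain core, and for TGCTGA, a part of the MAF recognition element. None of the 3 motifs contains another.
Slc38a4, chr15:97055957-97056206, minus strand: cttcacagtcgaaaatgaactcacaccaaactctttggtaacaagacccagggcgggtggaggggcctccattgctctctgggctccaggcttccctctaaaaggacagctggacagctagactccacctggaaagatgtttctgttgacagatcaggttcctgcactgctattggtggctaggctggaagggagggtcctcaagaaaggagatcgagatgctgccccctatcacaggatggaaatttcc
Slc7a8, chr14:54781947-54782136, minus strand: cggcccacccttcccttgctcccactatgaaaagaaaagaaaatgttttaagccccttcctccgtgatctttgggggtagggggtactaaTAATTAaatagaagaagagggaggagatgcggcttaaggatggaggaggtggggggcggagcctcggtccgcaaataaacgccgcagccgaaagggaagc
Slc7a11, chr3:50443615-50443863, minus strand: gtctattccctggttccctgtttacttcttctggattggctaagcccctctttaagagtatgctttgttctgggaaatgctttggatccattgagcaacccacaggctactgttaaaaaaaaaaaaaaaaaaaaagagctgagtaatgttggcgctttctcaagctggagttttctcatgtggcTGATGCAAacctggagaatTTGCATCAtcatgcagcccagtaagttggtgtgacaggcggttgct
The Slc38a4 stretch held none of the 3 motifs. That of Slc7a8 held TAATTA, which occurred in 4.84% of all 32851 windows and in 4 of the 56 member windows. That of Slc7a11 held TGATGNAA once on each strand, a motif found in 3.45% of all windows and in 3 member windows. TGCTGA occurred in 16.1% of all windows and in 8 member windows, among them that of Slc38a5. These matches describe letters and are not known sites.

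All 50 members together held 61182 UMIs, 0.249% of the UMIs outside the hormone genes. At least 1 UMI was found in both libraries for 46 members, and 7 members had fewer than 10 UMIs over all cells. Their summed level was highest in Gcg-only cells, at 3411 CPM in library 1 and 3374 CPM in library 2. Insulin-only cells held 2404 and 2408 CPM, Ppy-only cells 2185 and 2294 CPM, Sst-only cells 1850 and 1958 CPM, and cells with no hormone 1691 and 1895 CPM. The lead of Gcg-only cells came from a single gene. Without Slc7a2 the order changed to insulin-only cells at 2216 and 2205 CPM, then Gcg-only cells at 2019 and 1979 CPM and Ppy-only cells at 1965 and 2092 CPM, and these last 2 groups overlapped.

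**Figure D1:**
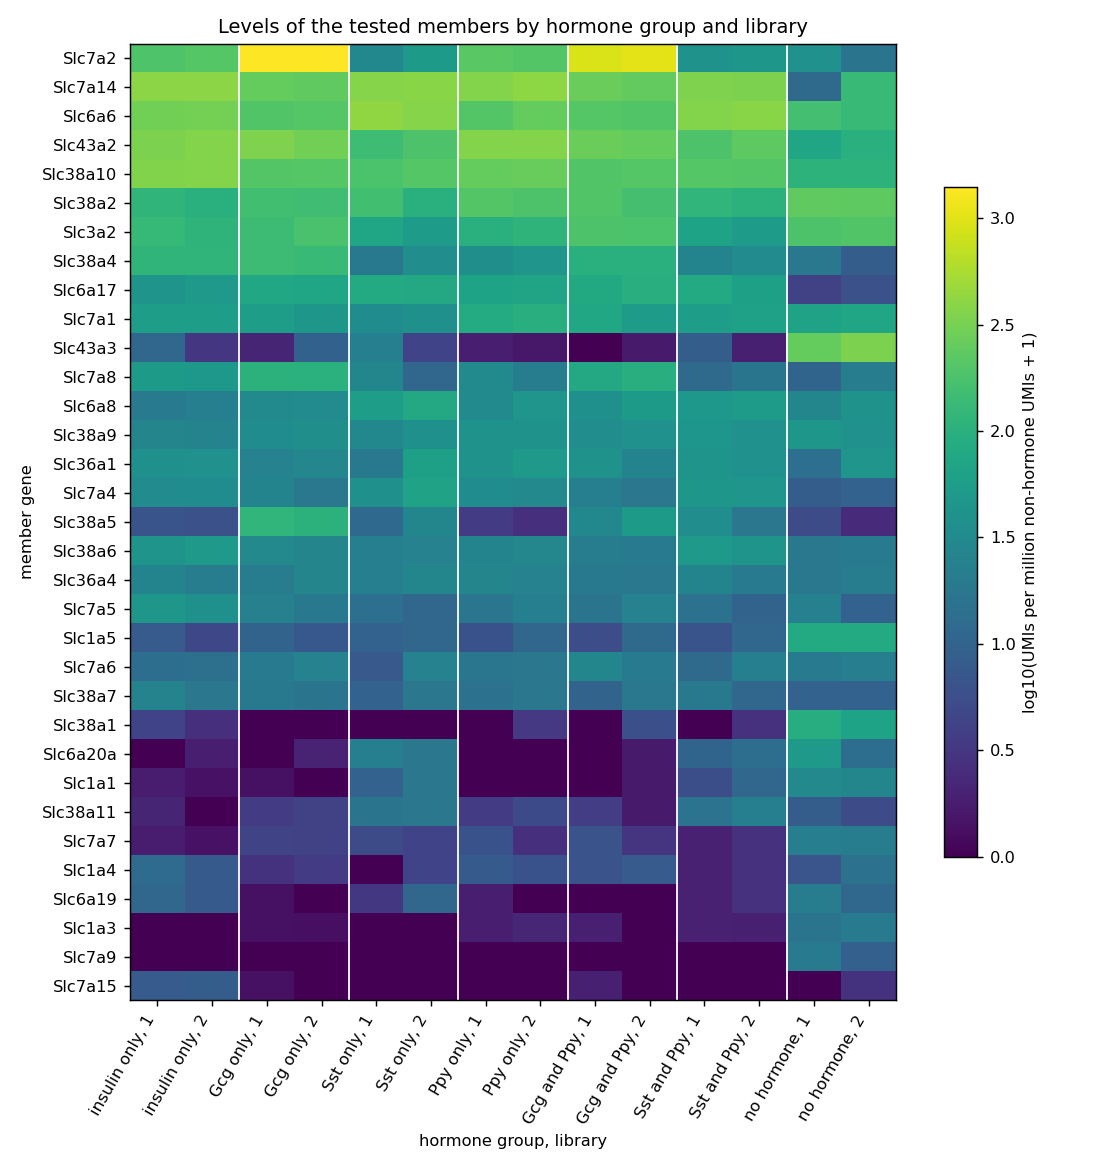
Levels of the 33 members that passed the filter on low counts in at least 1 of the fits, as log10(CPM + 1) in colour, with 1 column per hormone group and library and 1 row per gene ordered by mean level. Slc7a2 stands out in the Gcg-only columns, at 1392 and 1394, and Slc43a3, Slc38a1 and Slc1a5 in the columns of cells with no hormone.

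Which members differ between the endocrine groups was asked with edgeR's quasi-likelihood test on counts summed per group and library, with Benjamini-Hochberg adjustment over all 12986 genes tested and a threshold of 0.05. Of the 50 members, 27 passed the filter on low counts. Between insulin-only and Gcg-only cells, 7 of the 27 were called higher in insulin-only cells, against a background of 18.2% of all genes tested, and 7 lower, against 17.8%. The median log2 fold change was 0.04 over the 27 and -0.02 over all genes, and the median size without sign was 0.60 against 0.43. Between insulin-only and Sst-only cells, 9 were called higher (background 10.8%) and 5 lower (10.3%), with a median of 0.09 against 0.00378 over all genes. Over all genes 51.2% of calls were higher in insulin-only cells, and 37.1% without scaling factors. Between Gcg-only and Sst-only cells, 6 were called higher (8.43%) and 7 lower (9.53%), with a median of 0.20 against 0.03. Between Ppy-only and Gcg-only cells, 3 were called higher in Ppy-only cells (9.18%) and 5 lower (8.61%), with a median of 0.00099 against -0.00069. These comparisons share groups and are not independent of each other. At least 1 of the 4 called 21 of the 27 members. Slc1a5, Slc36a4, Slc38a7, Slc38a9, Slc43a3 and Slc7a6 were called in none of the comparisons among endocrine groups. With 23 cells in every sum, 22 of the 76 calls of members in all comparisons were lost with the same direction and 2 with the opposite one. Calls of genes that this setting did not test are not counted there. The calls kept were 5 of 14, 5 of 14, 8 of 13 and 5 of 8 in these 4 comparisons, in the order above. They were 0 of 2 for Gcg and Ppy against Gcg-only cells and 17 of 25 for cells with no hormone.

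**Figure D2:**
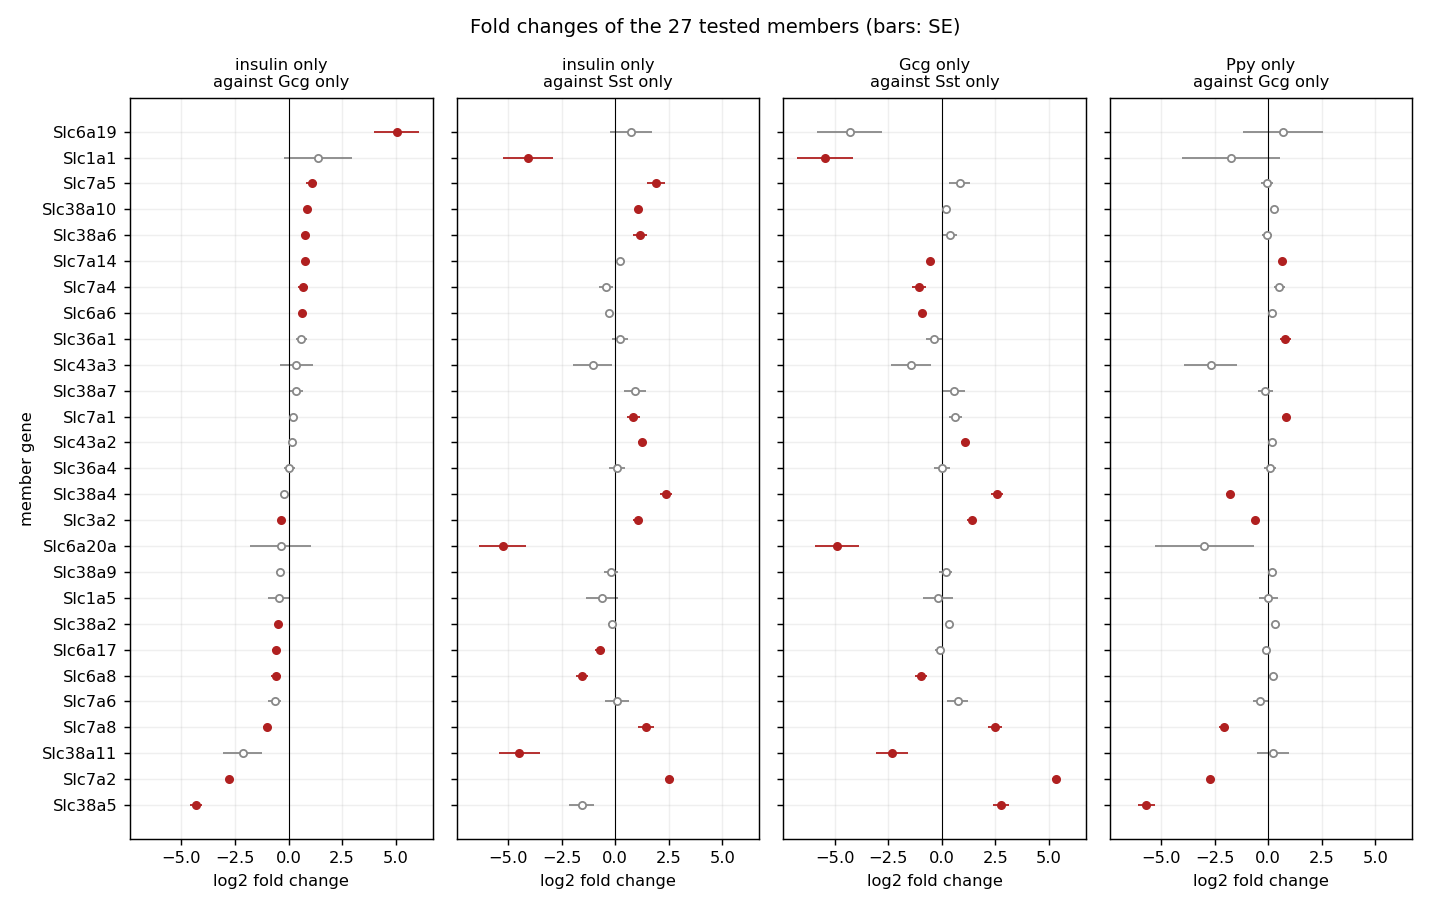
Log2 fold changes of the 27 tested members in 4 comparisons (horizontal axis, first group over second), with bars of 1 standard error. Filled red points passed the threshold and open grey points did not. Among the called members, Slc38a5 and Slc7a2 lie lowest where another group is set against Gcg-only cells, at -4.32 and -2.79 for insulin-only cells and -5.69 and -2.74 for Ppy-only cells, where Slc6a20a, not called, lies at -2.99.

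Among the cationic carriers, Slc7a2, which brings in arginine, lysine and ornithine (chr8:40862396-40922308, plus strand), separated Gcg-only cells from the other single-hormone groups. Its level was 1392 CPM in library 1 and 1394 CPM in library 2 in Gcg-only cells, 220 and 202 CPM in Ppy-only cells, 189 and 203 CPM in insulin-only cells, and 28.6 and 50.3 CPM in Sst-only cells. Gcg-only cells lay far above the rest, insulin-only and Ppy-only cells overlapped, and Sst-only cells lay lowest. Slc7a2 was lower in insulin-only than in Gcg-only cells by a log2 fold change of -2.79 ± 0.10 (SE; adjusted p = 4.37e-19), and lower in Ppy-only than in Gcg-only cells by -2.74 ± 0.10 (adjusted p = 1.32e-17). It was higher in Gcg-only than in Sst-only cells by 5.32 ± 0.18 (adjusted p = 7.99e-19) and higher in insulin-only than in Sst-only cells by 2.53 ± 0.22 (adjusted p = 5.9e-10).

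Slc7a2 was found in every Gcg-only cell of both libraries, with a median per cell of 1337 CPM in library 1 and 1357 CPM in library 2 and quartiles from 865 to 1858 CPM. To compare groups of unequal depth, each cell was thinned to 3000 non-hormone UMIs, for which no cell was too shallow. After thinning, 96.2% of Gcg-only cells had a UMI in library 1 (95% Clopper-Pearson interval 92.2 to 98.4%) and 95.4% in library 2 (91.1 to 98%). In insulin-only cells the share was 39.6% (32.4 to 47.1%) and 45.3% (38 to 52.6%), down from 79.1% and 77.4% before thinning. In cells with no hormone, a mixture of other cell types, it was 6.59% (2.46 to 13.8%) and 3.26% (0.678 to 9.23%). Of the 60 and 33 Slc7a2 UMIs in these cells, 34 and 18 lay in 5 cells of each library. Those cells had fewer than 10 UMIs of endothelial, lymphocyte, macrophage or stromal markers. Sst-only cells, with 0% (0 to 10%) and 13% (2.78 to 33.6%), could not be set apart from cells with no hormone, while insulin-only and Ppy-only cells lay above them. The level of free RNA was not measured. The median depth was 16413.5 and 19534 UMIs in Gcg-only cells and 13195 and 15014.5 UMIs in cells with no hormone, and the intervals cover counting error only.

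Slc7a1, the widely expressed carrier of arginine and lysine, had another order. It was highest in Ppy-only cells, at 85.9 and 93.8 CPM, against 55.6 and 45 CPM in Gcg-only cells, 56.8 and 56.9 CPM in insulin-only cells and 33 and 36.9 CPM in Sst-only cells. The Ppy-only libraries did not overlap with any other single-hormone group, and those of insulin-only and Gcg-only cells lay close together. The rise in Ppy-only over Gcg-only cells was 0.83 ± 0.17 on the log2 scale (adjusted p = 0.000804). Insulin-only cells were called above Sst-only cells by 0.85 ± 0.29 (adjusted p = 0.0377), a call that was lost at a hormone threshold of 2% (log2 0.16, adjusted p = 0.666) and when Sst cells with and without Ppy were pooled (log2 0.21, adjusted p = 0.432).

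Slc7a14 and Slc7a4, members of the cationic branch with less settled substrates, were both lowest in Gcg-only cells. Slc7a14 stood at 401 and 396 CPM in insulin-only cells, 378 and 382 CPM in Sst-only cells, 358 and 403 CPM in Ppy-only cells, and 248 and 240 CPM in Gcg-only cells. Only the Gcg-only libraries lay apart from the others. Slc7a14 was higher in insulin-only than in Gcg-only cells by 0.75 ± 0.09 (adjusted p = 1.86e-07) and higher in Ppy-only cells by 0.63 ± 0.10 (adjusted p = 1.93e-05). Slc7a4 stood at 25.5 and 17.4 CPM in Gcg-only cells and at 37.4 and 63.7 CPM in Sst-only cells, a difference of -1.08 ± 0.33 (adjusted p = 0.0189) with library values of -0.35 and -1.63. The call was lost with no filter on low counts (log2 -0.98, adjusted p = 0.053) and with 23 cells in every sum (log2 -0.70, adjusted p = 0.483). Its exons overlap those of P2rx6 on the other strand, which had 31 UMIs to its 647. Whether counting used strand is not given in the sources used here, so reads of such pairs cannot be told apart.

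The heavy chain Slc3a2 (chr19:8706882-8723369, minus strand), which carries the light chains of the heterodimers to the membrane, was lowest in Sst-only cells. Its level was 70.3 and 53.6 CPM there, 98.8 and 110 CPM in Ppy-only cells, 128 and 110 CPM in insulin-only cells, and 144 and 172 CPM in Gcg-only cells. Sst-only and Gcg-only libraries lay at the 2 ends without overlap, and insulin-only and Ppy-only libraries adjoined near 110 CPM. Slc3a2 was higher in Gcg-only than in Sst-only cells by 1.41 ± 0.21 (adjusted p = 1.04e-05) and lower in Ppy-only than in Gcg-only cells by -0.61 ± 0.14 (adjusted p = 0.00188). It was also called lower in insulin-only than in Gcg-only cells, by -0.36 ± 0.13 (adjusted p = 0.0236), but DESeq2 did not make that call (log2 -0.35, adjusted p = 0.145).

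Among the light chains, Slc7a8 (chr14:54722209-54781946, minus strand), which exchanges a wide range of neutral amino acids, was highest in Gcg-only cells, at 105 and 102 CPM, and stood at 51.3 and 47.2 CPM in insulin-only cells, 30.1 and 20.5 CPM in Ppy-only cells, and 26.4 and 10.1 CPM in Sst-only cells. Gcg-only cells lay above insulin-only cells, which lay above an overlapping pair of Ppy-only and Sst-only cells. The log2 fold changes were -1.02 ± 0.17 for insulin-only against Gcg-only cells (adjusted p = 1.42e-05), -2.08 ± 0.21 for Ppy-only against Gcg-only cells (adjusted p = 1.33e-08) and 2.47 ± 0.32 for Gcg-only against Sst-only cells (adjusted p = 9.93e-07). Slc7a5, which exchanges leucine and other large neutral amino acids, was highest instead in insulin-only cells.

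Slc7a5 stood at 45.4 and 36.6 CPM in insulin-only cells, 22.5 and 17.7 CPM in Gcg-only cells, 16.3 and 21.7 CPM in Ppy-only cells, and 13.2 and 10.1 CPM in Sst-only cells. The insulin-only libraries did not overlap with any other group, and Gcg-only and Ppy-only libraries overlapped. It was higher in insulin-only than in Gcg-only cells by 1.07 ± 0.24 (adjusted p = 0.000723) and than in Sst-only cells by 1.91 ± 0.43 (adjusted p = 0.00156). With 23 cells in every sum both calls were lost, at log2 0.13 (adjusted p = 0.93) and 1.69 (adjusted p = 0.161). Slc7a6, which pairs with Slc3a2 to exchange arginine for neutral amino acids, ranged from 6.59 to 23.7 CPM in the single-hormone groups with no call. Slc7a11 had 3 UMIs or fewer in every group and library, which is at the limit of 3 counts set here, so no difference in it was detectable at this depth. The summed level of 8 light chains was 149 and 147 CPM in Gcg-only cells, 118 and 105 CPM in insulin-only cells, 69.6 and 60.4 CPM in Ppy-only cells, and 50.5 and 46.9 CPM in Sst-only cells.

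**Figure D3:**
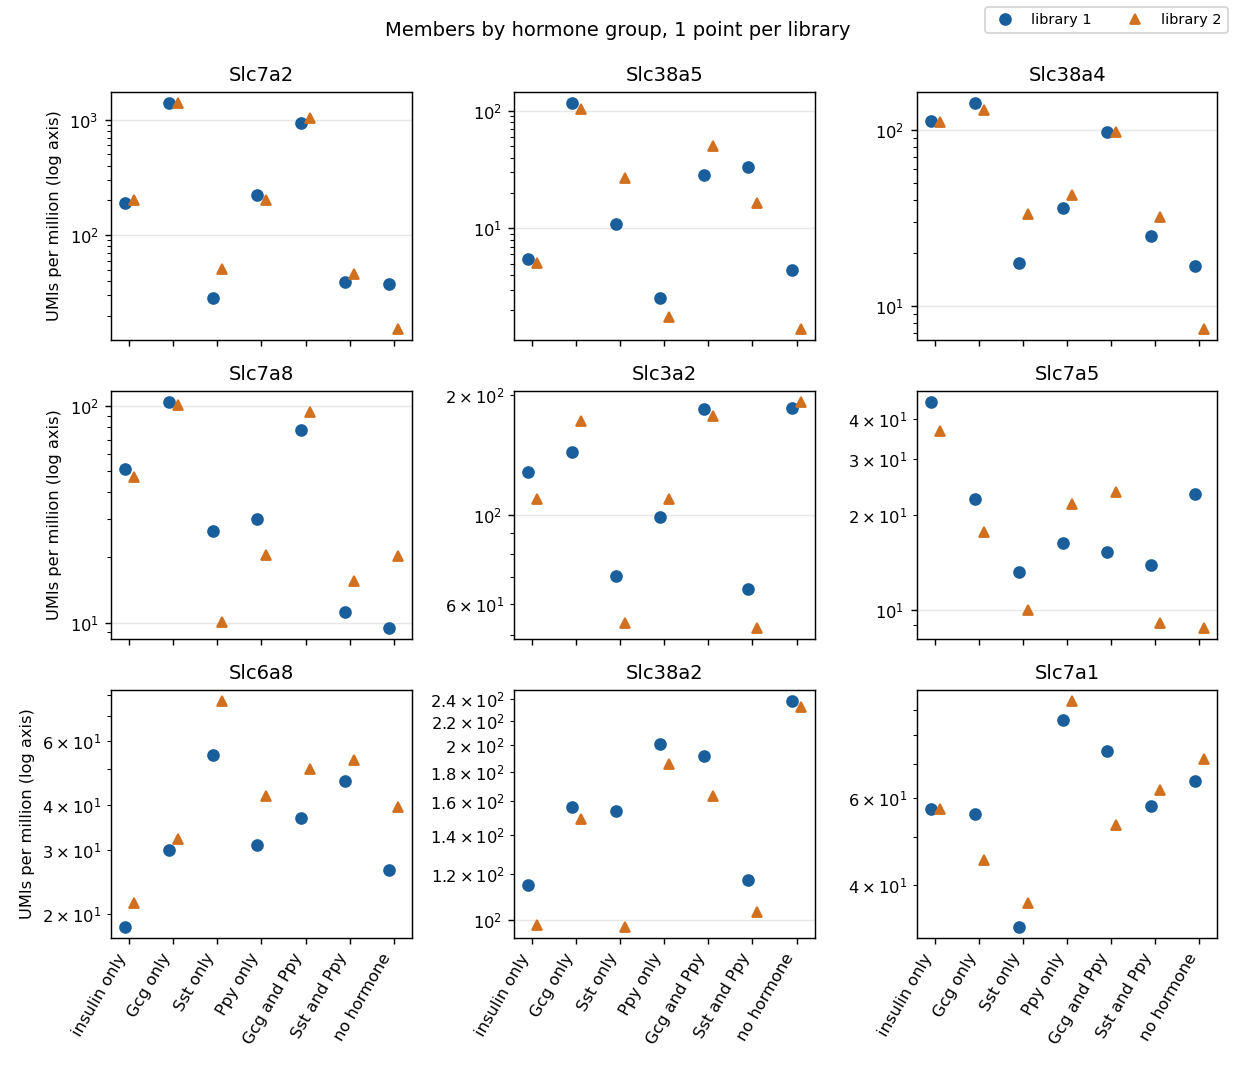
Levels of 9 members in CPM (log axis, its range set per gene) by hormone group, with 1 circle for library 1 and 1 triangle for library 2. Slc7a2, Slc38a5, Slc38a4, Slc7a8 and Slc3a2 are higher in Gcg-only than in Sst-only cells, Slc7a5 is highest in insulin-only cells at 45.4 and 36.6, and Slc6a8 is highest in Sst-only cells at 54.9 and 77.1.

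Of the Slc43 facilitators, Slc43a2, a sodium-independent exporter and importer of leucine, phenylalanine and methionine, was lower in Sst-only cells. It stood at 145 and 184 CPM there and at 298 to 368 CPM in insulin-only, Gcg-only and Ppy-only cells. The latter 3 groups could not be ordered, and Sst-only cells lay below all of them. The difference was 1.24 ± 0.16 for insulin-only against Sst-only cells (adjusted p = 7.89e-07) and 1.07 ± 0.16 for Gcg-only against Sst-only cells (adjusted p = 9.5e-06). Its exons overlap Gm45606 on the other strand, which had 906 UMIs to its 6700.

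Among the sodium-coupled Slc38 carriers, Slc38a5 and Slc38a4 were both high in Gcg-only cells but differed in where else they were found. Slc38a5 (chrX:8271133-8280179, plus strand), which carries glutamine, asparagine and histidine and is known to rise in alpha cells when glucagon signalling is blocked, stood at 117 and 104 CPM in Gcg-only cells. It stood at 11 and 26.8 CPM in Sst-only cells, 5.54 and 5.05 CPM in insulin-only cells, and 2.58 and 1.76 CPM in Ppy-only cells. No groups overlapped, but the Sst-only level rests on 5 and 8 UMIs, the insulin-only level on 15 and 12 and the Ppy-only level on 3 and 3. The difference was -4.32 ± 0.29 for insulin-only against Gcg-only cells (adjusted p = 7.41e-13), -5.69 ± 0.39 for Ppy-only against Gcg-only cells (adjusted p = 8.88e-12) and 2.76 ± 0.38 for Gcg-only against Sst-only cells (adjusted p = 2.8e-06), the last with library values of 3.43 and 2.08. Insulin-only cells were not called below Sst-only cells (log2 -1.56 ± 0.60, adjusted p = 0.0632), although they were at a hormone threshold of 2% (log2 -1.94, adjusted p = 0.00137).

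Unlike Slc7a2, Slc38a5 was seen in only part of the Gcg-only cells. A UMI was found in 53.3% of them in library 1 and 50% in library 2, and after thinning to 3000 UMIs in 24.2% (18.1 to 31.1%) and 22.4% (16.5 to 29.3%). Insulin-only cells had 1.65% (0.341 to 4.74%) and 1.58% (0.327 to 4.54%), and cells with no hormone had 0% (0 to 3.97%) and 0% (0 to 3.93%). At these counts cells without a UMI cannot be told from cells with a low level. The upper quartile of Gcg-only cells was 140 and 159 CPM and the lower quartile 0 in both libraries.

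Slc38a4 (chr15:96994820-97055956, minus strand), a carrier of small neutral amino acids of the system A type, was shared by Gcg-only and insulin-only cells. It stood at 143 and 130 CPM in Gcg-only cells, 113 and 112 CPM in insulin-only cells, 36.1 and 42.8 CPM in Ppy-only cells, and 17.6 and 33.5 CPM in Sst-only cells. Insulin-only and Gcg-only cells differed by -0.23 ± 0.13 (adjusted p = 0.173), which did not pass the test, and both lay well above the other groups. Slc38a4 was higher in insulin-only than in Sst-only cells by 2.36 ± 0.28 (adjusted p = 2.03e-07), higher in Gcg-only than in Sst-only cells by 2.60 ± 0.27 (adjusted p = 2.47e-08) and lower in Ppy-only than in Gcg-only cells by -1.79 ± 0.17 (adjusted p = 3.53e-09).

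Slc38a2, the system A carrier known to be induced by amino acid starvation, varied less. It stood at 157 and 149 CPM in Gcg-only cells, 115 and 98.1 CPM in insulin-only cells, 201 and 185 CPM in Ppy-only cells, and 154 and 97.2 CPM in Sst-only cells. Ppy-only libraries were highest, and the Sst-only libraries lay apart from each other, near the insulin-only and the Gcg-only level. It was called lower in insulin-only than in Gcg-only cells by -0.48 ± 0.13 (adjusted p = 0.00435). Ppy-only against Gcg-only cells did not pass (log2 0.32 ± 0.13, adjusted p = 0.0956).

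Slc38a10 was highest in insulin-only cells, at 356 and 367 CPM. It stood at 249 and 257 CPM in Ppy-only cells, 203 and 208 CPM in Gcg-only cells and 178 and 204 CPM in Sst-only cells, the last 2 overlapping. The difference was 0.86 ± 0.10 for insulin-only against Gcg-only cells (adjusted p = 2.49e-08) and 1.07 ± 0.13 for insulin-only against Sst-only cells (adjusted p = 4.42e-07). Gm11769 overlaps it on the other strand with 294 UMIs to its 5633. Slc38a9, the lysosomal arginine sensor that signals to mTORC1, ranged from 24.8 to 39.9 CPM in the single-hormone groups with no call.

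In the Slc6 family, the taurine and creatine carriers were both highest in Sst-only cells. Slc6a6, which imports taurine, stood at 418 and 379 CPM in Sst-only cells, 296 and 309 CPM in insulin-only cells, 203 and 250 CPM in Ppy-only cells, and 193 and 209 CPM in Gcg-only cells. It was lower in Gcg-only than in Sst-only cells by -0.90 ± 0.13 (adjusted p = 4.02e-06) and higher in insulin-only than in Gcg-only cells by 0.63 ± 0.10 (adjusted p = 1.41e-05), while insulin-only against Sst-only cells did not pass (log2 -0.27 ± 0.12, adjusted p = 0.134). Slc6a8, which imports creatine (chrX:73673150-73682502, plus strand), stood at 54.9 and 77.1 CPM in Sst-only cells, 30.9 and 42.2 CPM in Ppy-only cells, 30.1 and 32.2 CPM in Gcg-only cells, and 18.5 and 21.5 CPM in insulin-only cells. Insulin-only cells lay lowest and Sst-only cells highest, with Gcg-only and Ppy-only cells overlapping between them. Slc6a8 was lower in insulin-only than in Sst-only cells by -1.55 ± 0.30 (adjusted p = 0.000263) and lower in Gcg-only than in Sst-only cells by -0.95 ± 0.28 (adjusted p = 0.017). Against Gcg-only cells, insulin-only cells were lower by -0.60 ± 0.23 (adjusted p = 0.0386), a call that turned to 0.10 (adjusted p = 0.945) with 23 cells in every sum and was lost with DESeq2 (adjusted p = 0.161), with no filter on low counts (adjusted p = 0.0991) and at a hormone threshold of 0.5% (adjusted p = 0.129). The call of Gcg-only against Sst-only cells was lost with no filter (log2 -0.85, adjusted p = 0.0557), at 0.5% (log2 -0.70, adjusted p = 0.225) and with equal cells (log2 -1.40, adjusted p = 0.0967).

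Slc6a20a, a carrier of proline and related imino acids, rested on few UMIs: 10 and 5 in Sst-only cells, 0 and 2 in insulin-only cells and 0 and 3 in Gcg-only cells. The Sst-only level was 50.6 times that of insulin-only cells (95% counting interval 11.8 to 456) and 36.2 times that of Gcg-only cells (10.2 to 195), and both were called (adjusted p = 0.000711 and 0.000899). The Sst and Ppy cells, which entered neither contrast but were among the sums that the filter used, had 10 and 14 UMIs of it, at 9.3 and 12.8 CPM. Slc1a1, a glutamate carrier, had 4 and 5 UMIs in Sst-only cells, 5 and 11 in Sst and Ppy cells, 2 and 1 in insulin-only cells and 1 and 0 in Gcg-only cells. Slc38a11 had 7 and 5 UMIs in Sst-only cells and 16 and 24 in Sst and Ppy cells, against 3 and 0 in insulin-only and 7 and 9 in Gcg-only cells. All 3 genes were thus above the other single-hormone groups in both kinds of cells with Sst. With so few UMIs in insulin-only and Gcg-only cells, they passed the filter on low counts through other groups, chiefly those with Sst. The filter thus fixed the direction of these calls in advance, and the calls are no test of it. Over all cells Slc6a20a had 157 UMIs, while Ccr9 and Gm17200, which its exons overlap on the other strand, had 100 and 36. Slc1a1 had 137 UMIs, and 4430402I18Rik, which overlaps it in the same way, had 123. Reads of such pairs cannot be told apart, and the part of these partners was not tested. Endothelial markers, in whose cells Slc1a1 was also found, summed to 624 CPM in Sst-only cells of library 1 and 53.6 CPM in library 2. Acinar markers summed to 312 and 154 CPM in Sst-only cells, with 6 of 8 at 0 in each library, and to at most 21.5 CPM in the other single-hormone groups, and their part was not tested. With cells carrying endothelial, lymphocyte, macrophage or stromal markers removed, the 3 genes stayed called in both contrasts with Sst-only cells. The same kind of filter was applied there, so this is no test of the direction either. Cells with acinar or ductal markers were not removed. At a hormone threshold of 0.5%, Slc38a11 was called in neither, at log2 -0.17 for Gcg-only (adjusted p = 0.958) and -2.45 for insulin-only against Sst-only cells (adjusted p = 0.314). Slc1a1 was then not called for insulin-only against Sst-only cells (log2 -2.90, adjusted p = 0.132).

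Slc6a19, the carrier that takes up neutral amino acids in gut and kidney, had 27 and 16 UMIs in insulin-only cells and 1 and 0 in Gcg-only cells. The ratio was 46.1 (95% counting interval 7.84 to 1862), with an adjusted p of 0.000319. With so few UMIs in Gcg-only cells, the gene passed the filter on low counts through other groups, which set the direction of this call. Insulin-only against Sst-only cells did not pass (log2 0.75 ± 0.97, adjusted p = 0.653), with library values of 1.84 and -0.28. Slc6a17, a vesicular carrier of neutral amino acids, went the other way between insulin-only and Gcg-only cells. It stood at 41 and 49.7 CPM in insulin-only cells, 72.8 and 68.7 CPM in Gcg-only cells and 83.5 and 77.1 CPM in Sst-only cells. It was lower in insulin-only than in Gcg-only cells by -0.60 ± 0.17 (adjusted p = 0.00463). Slc1a5, the sodium-dependent glutamine exchanger, stood between 3.79 and 10.1 CPM in the single-hormone groups, with no call between them. Slc43a3 stood at 22 and 3.35 CPM in Sst-only cells, on 10 and 1 UMIs, and moved with the endothelial markers.

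Cells with both Gcg and Ppy were asked how far they differ from cells with Gcg alone. Of the 27 members, 0 were called higher (background 0.277%) and 2 lower (0.123%), with a median log2 fold change of -0.02 against 0.0014 over all genes. Over all genes 69.2% of calls were higher, and 80.4% with DESeq2. The share was 55.8% with no filter on low counts, 48.1% at a hormone threshold of 5% and 26.3% with equal numbers of cells. The 2 members were Slc7a2 and Slc38a5. Slc7a2 stood at 929 and 1028 CPM, below the 1392 and 1394 CPM of Gcg-only cells, a difference of -0.51 ± 0.09 (adjusted p = 0.00379). Slc38a5 stood at 28.7 and 50.8 CPM, below 117 and 104 CPM, a difference of -1.44 ± 0.23 (adjusted p = 0.00105). Both libraries of each gene lay between those of the Ppy-only and the Gcg-only cells. Slc7a8, at 78 and 94.6 CPM, and Slc38a4, at 97.7 and 98.1 CPM, were also below the Gcg-only libraries but did not pass the test (adjusted p = 0.751 and 0.176).

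Slc7a2 within these cells moved with the larger of the 2 hormones. In the 52 and 61 cells with more Gcg than Ppy it stood at 1026 and 1114 CPM. In the 13 and 25 cells with at least as much Ppy as Gcg it stood at 624 and 811 CPM. Both libraries gave the same order, and even the second kind of cell lay above the 220 and 202 CPM of Ppy-only cells. Without the cells with more Ppy, an alternative added after seeing the data, the difference from Gcg-only cells no longer passed the test (log2 -0.38, adjusted p = 0.143), while that of Slc38a5 did. The call of Slc7a2 was also lost at a hormone threshold of 0.5% (log2 -0.45, adjusted p = 0.0693), and both calls with 23 cells in every sum (adjusted p = 0.554 for each). Scrublet called 0 cells of the Gcg and Ppy group of library 1 and 2 of library 2 as doublets. Doublets of like depth are often missed, and their part in these values was not tested.

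Cells with Sst and Ppy were not set apart from Sst-only cells by any member. Of the 27, 0 were called in either direction with edgeR, against a background of 0.0231% called higher and 0.0077% lower, and 0 with DESeq2. At an unadjusted p under 0.05 there were 3 members and 1001 genes. Slc7a2 stood at 39.1 and 45.7 CPM against 28.6 and 50.3 CPM (log2 0.20 ± 0.30), and Slc6a6 at 364 and 383 CPM against 418 and 379 CPM. The Sst-only sums were the smallest, with 455071 and 298300 UMIs, which limits what this comparison can show.

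Cells in which no hormone reached 1% were compared with the mean of the 4 single-hormone groups in a second fit of 15342 genes, which 33 members entered. Of these, 14 were called higher, against a background of 33.1%, and 11 lower, against 24.9%, with a median log2 fold change of 0.41 over members and 0.06 over all genes. Slc38a1, Slc7a9, Slc1a3, Slc7a7 and Slc1a4, all called higher, had not passed the filter in the fit of endocrine groups. Members that pass the filter only through high sums in cells with no hormone can hardly be called lower. Part of the count of 14 and of the median of 0.41 was thus set by the filter. Lower were Slc6a17, Slc7a2, Slc38a4, Slc7a14, Slc38a5, Slc7a4, Slc43a2, Slc7a8, Slc38a10, Slc6a6 and Slc38a6, by -3.81 to -0.59. Slc6a17 stood at 3.14 and 5.1 CPM, against 41 CPM or more in every single-hormone library, and Slc43a2 at 71 and 97.7 CPM. Slc7a14 differed between libraries, at 11.3 and 133 CPM, and most of its UMIs in library 2 came from cells without markers of another type.

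Higher were Slc38a1, Slc7a9, Slc1a3, Slc43a3, Slc1a1, Slc6a20a, Slc1a5, Slc6a19, Slc7a7, Slc1a4, Slc3a2, Slc38a2, Slc38a9 and Slc7a1, by 7.77 to 0.41. Exons of Slc7a7, which had 125 UMIs over all cells, overlap Oxa1l on the other strand, which had 944. The overlaps of Slc1a1 and Slc6a20a given above apply here too. The call of Slc38a9 (log2 0.43, adjusted p = 0.041) was lost in several alternatives, among them DESeq2 (log2 0.52, adjusted p = 0.0878). So were those of Slc38a6 (DESeq2, log2 -0.51, adjusted p = 0.173), Slc7a1 (hormone threshold of 2%, log2 0.24, adjusted p = 0.128) and Slc1a4 (DESeq2, log2 1.67, adjusted p = 0.0538). Slc43a3, a carrier of purine bases rather than amino acids, stood at 250 and 335 CPM (log2 6.17 ± 0.37, adjusted p = 8.63e-08). Slc38a1, a system A carrier of glutamine, stood at 91.2 and 64.9 CPM (log2 7.77 ± 0.47, adjusted p = 5.08e-07). It entered this fit through its sums in cells with no hormone. The filter thus set the direction of its call, as for Slc7a9, Slc1a3, Slc7a7 and Slc1a4, and these calls are no test of it. Slc1a5, which had also passed the filter among endocrine groups, stood at 82.4 and 82 CPM (log2 3.53 ± 0.22, adjusted p = 1.27e-07). Slc3a2 stood at 185 and 192 CPM (log2 0.92 ± 0.12, adjusted p = 3.19e-05) and Slc38a2 at 238 and 233 CPM (log2 0.82 ± 0.12, adjusted p = 0.000123). For Slc43a3, Slc38a1 and Slc1a5 every single-hormone library lay below both libraries of cells with no hormone.

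These cells are a mixture, and their members followed the marker lists of other cell types. Of the 183 cells, 56 had at least 10 UMIs of endothelial markers and of no other of the 4 lists, 56 of lymphocyte markers, 22 of lymphocyte and macrophage markers, 10 of stromal markers and 30 of none of the 4. Slc43a3 stood at 863 and 880 CPM in the cells with endothelial markers and was found in 24 of 26 and 30 of 30 of them, against 21 and 36.6 CPM in those with lymphocyte markers. Slc38a1 stood at 254 and 173 CPM in cells with lymphocyte markers and had 1 and 0 UMIs in those with endothelial markers. Slc1a5 stood at 207 and 136 CPM in cells with lymphocyte markers and 23.6 and 58.4 CPM in those with endothelial markers. Slc43a3 and Slc38a1 thus marked different cells, each in both libraries. Slc3a2 and Slc38a2 were spread over all of them, Slc3a2 at 253 and 244 CPM with endothelial and 196 and 256 CPM with lymphocyte markers, and Slc38a2 at 173 and 260 CPM and 328 and 350 CPM. These cells were grouped by expressed genes, so no test was made between them.

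Among cells with no hormone, the 30 cells with none of the 4 lists held most UMIs of 3 epithelial carriers, of which Slc6a20a and Slc6a19 were also seen in endocrine groups. Slc6a20a had 77 and 27 UMIs there, in 5 of 13 and 5 of 17 cells. Slc7a9, the light chain of the cystine and dibasic amino acid exchanger of kidney and gut, had 28 and 18 UMIs there of 29 and 18 over all cells. Slc6a19 had 30 UMIs in 2 cells of library 1 and 19 UMIs in 2 cells of library 2. Ductal markers summed to 2120 and 859 CPM and acinar markers to 18.2 and 9.27 CPM over all cells with no hormone, and their part in these values was not tested.

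**Figure D4:**
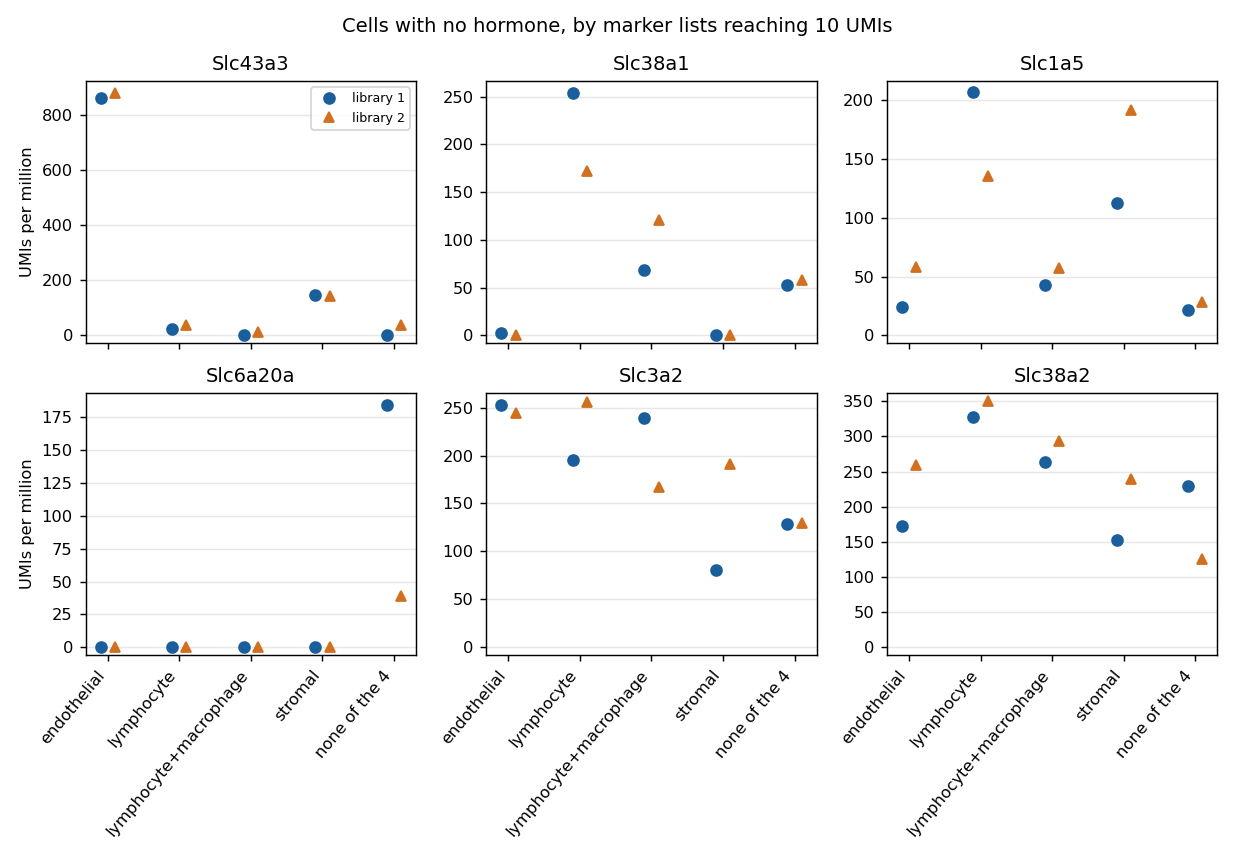
Levels of 6 members, in CPM, in cells with no hormone grouped by which lists of markers reached 10 UMIs (horizontal axis), with 1 circle for library 1 and 1 triangle for library 2. Slc43a3 is highest with endothelial markers at 863 and 880, Slc38a1 with lymphocyte markers at 254 and 173, and Slc6a20a is seen only in cells with none of the lists. The stromal class held 8 and 2 cells.

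Genes around these carriers were described from lists of the amino acid pathways. Of 16 tested genes of the amino acid starvation response, 5 were higher and 2 lower in insulin-only than in Gcg-only cells, and 8 were higher and 0 lower in insulin-only than in Sst-only cells. Gcg-only against Sst-only cells gave 4 higher and 2 lower, and Ppy-only against Gcg-only cells 5 higher and 2 lower. Over all genes 18.2% were called higher and 17.8% lower in the first of these comparisons, 10.8% and 10.3% in the second, 8.43% and 9.53% in the third, and 9.18% and 8.61% in the fourth. The list's median log2 fold change was 0.04, 0.94, 0.74 and 0.04, against -0.02, 0.00378, 0.03 and -0.00069 over all genes. Atf5, a transcription factor of that response, stood at 229 and 326 CPM in insulin-only cells and 20.2 and 20.5 CPM in Gcg-only cells (log2 3.80 ± 0.21, adjusted p = 1.49e-14). Its relative Atf4 stood at 333 and 324 CPM in insulin-only and 191 and 184 CPM in Sst-only cells (log2 0.94 ± 0.13, adjusted p = 3.16e-06). Gcg-only cells, at 330 and 322 CPM, lay near the insulin-only level. Ppy-only cells were highest, at 456 and 429 CPM (log2 0.42 ± 0.09 against Gcg-only cells, adjusted p = 0.00131).

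Of 27 tested genes of amino acid sensing by mTORC1, 2 were higher and 4 lower in insulin-only than in Gcg-only cells, 2 and 1 against Sst-only cells, 6 and 0 in Gcg-only against Sst-only cells, and 1 and 2 in Ppy-only against Gcg-only cells. The shares of all genes called higher and lower in the same order were 18.2% and 17.8%, 10.8% and 10.3%, 8.43% and 9.53%, and 9.18% and 8.61%. The list's medians were -0.06, 0.28, 0.17 and -0.04. Castor2, a relative of the cytosolic arginine sensor Castor1, was highest in Gcg-only cells, at 1213 and 1255 CPM. It stood at 583 and 585 CPM in Ppy-only cells, 552 and 577 CPM in Sst-only cells and 324 and 334 CPM in insulin-only cells. The difference was -1.86 ± 0.09 for insulin-only against Gcg-only cells (adjusted p = 4.9e-16) and 1.23 ± 0.10 for Gcg-only against Sst-only cells (adjusted p = 2.62e-10). Sst-only and Ppy-only cells lay close together.

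Of 16 tested genes of glutamine, glutamate and alanine metabolism, a list that also holds enzymes of arginine, 4 were higher and 6 lower in insulin-only than in Gcg-only cells, 3 and 1 against Sst-only cells, 5 and 1 in Gcg-only against Sst-only cells, and 2 and 4 in Ppy-only against Gcg-only cells. The shares of all genes called higher and lower were 18.2% and 17.8%, 10.8% and 10.3%, 8.43% and 9.53%, and 9.18% and 8.61%. The list's medians were -0.08, 0.24, 0.49 and -0.26. Arg1, which splits arginine, was highest in Sst-only cells. It stood at 701 and 805 CPM there, 165 and 173 CPM in Gcg-only cells, 11.4 and 11.8 CPM in insulin-only cells, and 8.59 and 9.38 CPM in Ppy-only cells. It was lower in Gcg-only than in Sst-only cells by -2.05 ± 0.11 (adjusted p = 2.66e-14). Glul, which makes glutamine, stood at 356 and 362 CPM in insulin-only cells and 70.3 and 90.5 CPM in Sst-only cells (log2 2.33 ± 0.20, adjusted p = 4.86e-10).

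Of 10 tested amino acid transporters outside these families, 3 were higher and 3 lower in insulin-only than in Gcg-only cells. The counts were 1 and 0 against Sst-only cells, 2 and 0 in Gcg-only against Sst-only cells, and 2 and 0 in Ppy-only against Gcg-only cells. Over all genes 18.2% and 17.8%, 10.8% and 10.3%, 8.43% and 9.53%, and 9.18% and 8.61% were called higher and lower. The list's medians were 0.10, 0.27, 0.44 and 0.47. Slc16a10, a facilitator of aromatic amino acids, was highest in Ppy-only cells, at 885 and 893 CPM, against 523 and 503 CPM in Gcg-only cells, 323 and 278 CPM in Sst-only cells and 283 and 238 CPM in insulin-only cells. It was higher in Ppy-only than in Gcg-only cells by 0.78 ± 0.09 (adjusted p = 1.81e-07) and lower in insulin-only than in Gcg-only cells by -0.93 ± 0.09 (adjusted p = 2.88e-09).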

How the data were processed

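Single cells of 1 control islet preparation were measured in 2 RevGel-seq libraries. The authors deposited 1 table of UMI counts per library, made with Cytonaut from cell barcodes above a knee in depth and reads aligned to exons of GRCm38. The tables shared 0 barcodes. Only genes with a row in both tables were taken as members, and coordinates came from GENCODE M21. The members, lists and tests were chosen with earlier results of these data known. Cells were grouped by hormones at 1% of UMIs, and counts were summed per group and library without Ins1, Ins2, Gcg, Sst and Ppy, since cells are not replicates. Sums held 298300 to 2823605 UMIs. The test was the quasi-likelihood F test of edgeR 4.0.16 (glmQLFit and glmQLFTest, run under R 4.3.3), after filterByExpr and TMM scaling, with Benjamini-Hochberg adjustment and a threshold of 0.05, in a fit of 12 sums for the 6 endocrine groups, with 6 residual degrees of freedom, and a fit of 10 sums for cells with no hormone, with 5. The standard error is the log2 fold change divided by the root of the F statistic. Calls were tested on simulated counts, with changes set between insulin-only and Gcg-only cells only. There 76% of 2-fold and 99% of 4-fold changes were recovered, with 9 false calls among 184. Changes in the smaller Sst-only sums were not simulated.

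Members named with full values were those called with at least a 2-fold difference among endocrine groups and at 50 CPM or more in the highest single-hormone group, plus 10 fixed by name. Others were named after their values were seen. Up to 3 genes per pathway list were named, by smallest adjusted p, and 1 gene of these lists is not reported here. The library number pairs the sums, because all groups of a library were sequenced as one. The correlation of library differences between groups was -0.0523 to 0.0982 over 15 pairs of groups. A fit with the library as replicate block was an alternative. Scrublet, run per library in scanpy 1.11.5, called 16 of 1483 cells as doublets (1.08%), which were kept and removed as an alternative. DESeq2 1.42.0, other scaling, filters, hormone thresholds, equal numbers of cells and removal of cells with markers of other types were further alternatives.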

Additional observations from a re-analysis of the deposited data

Results flagged for a closer look

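Of the members outside the fits among endocrine groups, several had UMIs above 3 counts in some group. In cells with no hormone, Slc1a2, a glutamate carrier, had 29 UMIs in library 2, 26 of them in 1 of 2 cells. Slc36a2 had 4 UMIs in library 1 and 18 in library 2, each in 1 cell. Slc6a15 had 45 UMIs in library 2, 38 of them in 1 of 2 cells, and Slc7a3 had 24 UMIs there, 19 of them in 1 of 2 cells. Slc6a4, the serotonin carrier, had 8 UMIs in 2 cells of library 1 and 27 UMIs in 8 cells of library 2, at most 8 of them in 1 cell. Slc6a7 had 5 UMIs in 2 cells of library 2, and Slc43a1 had 5 UMIs in 4 cells of library 1. In insulin-only cells, Slc43a1 had 5 UMIs in 1 cell of library 1 and Slc6a9 had 5 UMIs in 4 cells of library 2. In Gcg-only cells, Slc6a20b had 10 UMIs in 8 cells of library 2. Its exons overlap Sacm1l on the other strand.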

How the results depend on the processing

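Of 94 alternative counts of called members, 87 stayed within 1.5 times the count reported. With 23 cells in every sum, 5 members were called between insulin-only and Gcg-only cells, 6 between insulin-only and Sst-only cells, 8 between Gcg-only and Sst-only cells and 0 between Gcg and Ppy and Gcg-only cells, with 1358, 1053, 972 and 19 calls over all genes against 4680, 2729, 2332 and 52. This alternative uses fewer cells and tests 8781 genes. Slc6a8 then turned to 0.10 for insulin-only against Gcg-only cells and Slc7a1 to -0.093 for insulin-only against Sst-only cells, neither called. The 2 calls between Gcg and Ppy and Gcg-only cells became 1 with DESeq2, which gave Slc38a5 no adjusted p, 1 at a hormone threshold of 0.5% and 1 without cells with more Ppy than Gcg. For all genes this comparison gave 190 calls with no filter on low counts, 104 at a threshold of 5%, 118 with cells with markers of other types removed, 119 with the top cell of each gene left out and 12 without cells with more Ppy. Over all genes, Ppy-only against Gcg-only cells gave 2310 calls, 1415 with DESeq2 and 591 with equal cells, cells with no hormone 8890 and 4780 with equal cells, and Sst and Ppy against Sst-only cells 4, from 1 with equal cells to 58 with no filter. Over the 76 called member contrasts, the 995 values under alternatives with a test gave 928 with the same call, 65 without it and 2 reversed. Contrasts that an alternative did not test are not among the 995. The 152 values from 1 library alone gave 0 reversed. Both libraries had entered each call, so few reversals were possible and this count is no independent check. Counts without 1 library were not made, since no residual degrees of freedom remain. Without scaling factors the median of all genes shifted by -0.13 for insulin-only against Sst-only cells, and 37.1% of calls were higher against 51.2%. The replicate block ended 1 call, that of Slc38a9 in cells with no hormone (log2 0.43, adjusted p = 0.0561), and no other call of a member. The small Sst-only sums limit the comparisons with them.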
